A study of Homo sapiens with 6 samples.

Results

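DNA replication and S phase genes were examined in A375 cells sorted on aldehyde dehydrogenase (ALDH) activity. The set holds 49 genes chosen by name for their roles in origin licensing, at the replication fork, in nucleotide supply and in S phase repair. All 49 were found by gene name among the 57914 genes of the deposited tables, and all 49 passed the filter on low counts, which left 17047 genes to be tested. A375 is an established human melanoma cell line. Its cells were grown in high-glucose medium with serum, stained with Aldefluor, a substrate that ALDH enzymes turn into a fluorescent product, and sorted by flow cytometry. The ALDH_High group holds 3 libraries from the 5% of cells with the strongest signal and the ALDH_Low group 3 libraries from the 5% with the weakest. No other treatment or genetic change is named in the labels, so both groups share the line, the medium, the staining and the sort. The labels do not say whether the libraries of a group come from separate cultures or sorts, and the p-values below therefore measure only the spread between these libraries, which may be technical.

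A cell copies its DNA once per division. In G1 phase the origin recognition complex, with CDC6 and CDT1, loads rings made of the proteins MCM2 to MCM7 onto DNA, and geminin (GMNN) later blocks further loading. At the start of S phase, CDC45 and the GINS complex join the ring and turn it into an active helicase, the DNA polymerases are recruited, the sliding clamp PCNA is loaded by replication factor C, and single-stranded DNA is covered by replication protein A. Many of these genes are transcribed from promoters bound by E2F factors around the passage from G1 to S phase, and their messages are abundant in dividing tumour cells such as cultured melanoma lines.

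Promoter windows from RefSeq (GRCh38.p14, 250 bases before to 50 after each annotated start) were found for 41 of the 49 genes, in 54 windows. An E2F site was searched as TTTCCCGC, TTTCGCGC, TTTGCCGC or TTTGGCGC on both strands, with overlapping matches counted. It was present in 24 of the 54 windows (44.4%), against 3.31% of all 35116 windows in the table. Counted by gene, 23 of 41 members (56.1%) had a match in at least 1 window, against 3.99% of 27305 gene symbols. The background was not matched to the members by gene type or base composition. A CCAAT box, searched as CCAAT on both strands, was present in 61.1% of the member windows and 34.6% of all windows. The stretches below run from 90 bases before to 30 after the start, 5′ to 3′ on the strand of the gene, with E2F matches in capitals. The first 5 belong to genes that differed between the sorted groups, and the last 4 to MCM genes, none of which passed the threshold.
RFC3, chr13:33818059-33818178, plus strand: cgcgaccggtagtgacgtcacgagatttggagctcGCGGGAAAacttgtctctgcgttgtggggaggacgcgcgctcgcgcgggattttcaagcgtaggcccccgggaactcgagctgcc
GINS1, chr20:25407583-25407702, plus strand: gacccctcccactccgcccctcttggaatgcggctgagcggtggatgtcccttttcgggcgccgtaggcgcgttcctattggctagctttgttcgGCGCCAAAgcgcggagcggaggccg
EXO1, chr1:241848114-241848233, plus strand: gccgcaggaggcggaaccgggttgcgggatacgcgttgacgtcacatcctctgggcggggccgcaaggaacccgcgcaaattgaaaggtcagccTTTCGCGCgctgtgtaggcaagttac
TYMS, chr18:657563-657682, plus strand: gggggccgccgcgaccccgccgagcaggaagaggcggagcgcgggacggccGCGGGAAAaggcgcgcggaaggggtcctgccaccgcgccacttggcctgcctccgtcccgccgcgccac
UNG, chr12:109098082-109098201, plus strand: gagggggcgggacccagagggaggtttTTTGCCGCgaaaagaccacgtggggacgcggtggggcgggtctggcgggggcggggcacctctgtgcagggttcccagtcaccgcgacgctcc
MCM2, chr3:127598321-127598440, plus strand: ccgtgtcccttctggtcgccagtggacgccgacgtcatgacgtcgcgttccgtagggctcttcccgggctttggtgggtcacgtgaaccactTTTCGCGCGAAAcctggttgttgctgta
MCM3, chr6:52284713-52284832, minus strand: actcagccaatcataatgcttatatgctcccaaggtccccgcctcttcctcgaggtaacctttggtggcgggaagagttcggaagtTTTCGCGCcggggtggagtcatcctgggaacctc
MCM6, chr2:135876414-135876533, minus strand: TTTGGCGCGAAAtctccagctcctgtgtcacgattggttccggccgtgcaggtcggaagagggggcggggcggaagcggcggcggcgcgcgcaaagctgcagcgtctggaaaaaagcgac
MCM7, chr7:100101368-100101487, minus strand: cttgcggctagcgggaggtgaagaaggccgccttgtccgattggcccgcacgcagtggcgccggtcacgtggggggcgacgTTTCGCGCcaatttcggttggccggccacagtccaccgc

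The stretches show that one or another of the E2F words stood near the starts of genes that were higher (RFC3, GINS1, EXO1 and TYMS), lower (UNG) or not called (the MCM genes). In RFC3 and TYMS the match reads GCGGGAAA on the gene's strand and begins 55 and 39 bases before the start. In MCM2 the pair of overlapping matches, TTTCGCGC and GCGCGAAA, begins at bases 3 and 7 of the transcribed part, and in MCM6 the pair of TTTGGCGC and GCGCGAAA begins 90 bases before the start. Among members with a window, a match was present in 4 of the 5 that were higher (not in CDC45), in UNG, and in 18 of the 35 that did not pass the threshold. UNG, EXO1 and MCM7 have more than 1 window, and the one with a match is shown. A match of letters describes the window and is no evidence that a factor binds there.

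Total counts lay between 26692868 and 37830603 per library. In a principal component analysis of log2 (CPM + 1), where CPM are counts per 1e6 scaled reads, PC1 (69.4% of variance) split ALDH_High from ALDH_Low. PC2 (13.9%) set ALDH_High library 1, at 31.3, apart from ALDH_High libraries 2 and 3, at -14.5 and -19.4. Within the ALDH_High group, library 1 had the lowest CPM in 27 of the 49 members and library 2 the highest in 28, and within ALDH_Low, library 3 had the highest in 30. SOX10, a melanocyte lineage factor, had at least 5835 counts in every library, while the pigment genes PMEL and MLANA had at most 19 and 3. The 6 melanoma markers summed to 670 to 843 CPM in ALDH_High and 212 to 233 CPM in ALDH_Low, with SOX10, S100B and S100A1 higher in ALDH_High (log2 fold changes 1.79, 4.28 and 4.75) and MITF lower (-0.92, edgeR adjusted p 0.00667). Summed over 5 white blood cell markers, levels were 2.86 to 6.56 CPM in ALDH_High and 1.88 to 2.71 in ALDH_Low, nearly all from LYZ, which was higher in ALDH_High (log2 fold change 1.65), and CD14, which was lower (-1.96), with at most 4 counts of PTPRC and 2 of CD3E in any library. The 3 fibroblast markers summed to 7.63 to 9.68 and 5.14 to 5.28 CPM, the 3 endothelial markers to 0.674 to 1.61 and 0.821 to 2.29, and the 3 epithelial markers to 10.6 to 15.1 and 8.21 to 11.6. Of the epithelial markers, KRT14 did not pass the threshold (0.58) and KRT5 was lower in ALDH_High (-3.63, edgeR adjusted p 0.000898). Their part in the results was not tested.

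The comparison of ALDH_High with ALDH_Low asks whether cells at the ends of the ALDH activity range differ in their messages for DNA replication. The set as a whole did not move one way. E2F8, RFC3, GINS1, EXO1, GINS4, TYMS and CDC45 were higher in ALDH_High, by 1.32-fold (CDC45) to 1.73-fold (E2F8), and RPA2 and UNG were lower, by 1.52-fold and 1.29-fold. The other 40 members did not pass the threshold, an edgeR quasi-likelihood p of 0.05 after Benjamini-Hochberg adjustment over all genes tested. The 7 higher members are 14.3% of the set, beside 10.8% of all genes tested, and the 2 lower members are 4.08%, beside 9.83%. In either direction 18.4% of the members were called, beside 20.6% of all genes tested, so the share of changed genes was near the background. The median log2 fold change (ALDH_High minus ALDH_Low) was 0.037 over the members and -0.013 over all genes tested, and 25 members lay above 0 and 24 below. The libraries of the groups did not overlap in CPM in 22 members (44.9%), beside 37.8% of all genes tested. TPM scale by gene length and also scale the libraries differently from CPM. In TPM some of these members overlapped, among them ORC1, MCM6, CCNE2 and TIPIN. In bulk RNA, a difference in the share of cells in S phase and a difference in RNA per cell cannot be told apart.

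Without ALDH_High library 1, 10 members were higher and 3 lower, where 12.2% and 11.5% of all genes tested were called in each direction. The members added were ORC6, POLA1 and RAD51AP1 among the higher and MCM2 among the lower, all 9 of the first fit passed again, and the median of the members was 0.12. Leaving out ALDH_High library 2, ALDH_Low library 1 or ALDH_Low library 2 gave 4 higher and 1 lower in each case. In these fits 8.25%, 8.99% and 7.5% of all genes tested were higher and 6.18%, 6.86% and 6.52% lower. Leaving out ALDH_High library 3 gave 6 higher and 1 lower, beside 8.89% and 6.71% of all genes tested, and leaving out ALDH_Low library 3 gave 7 and 1, beside 7.36% and 6.81%. RFC3, GINS1 and RPA2 passed in all 15 alternatives to the main fit.

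**Figure D1:**
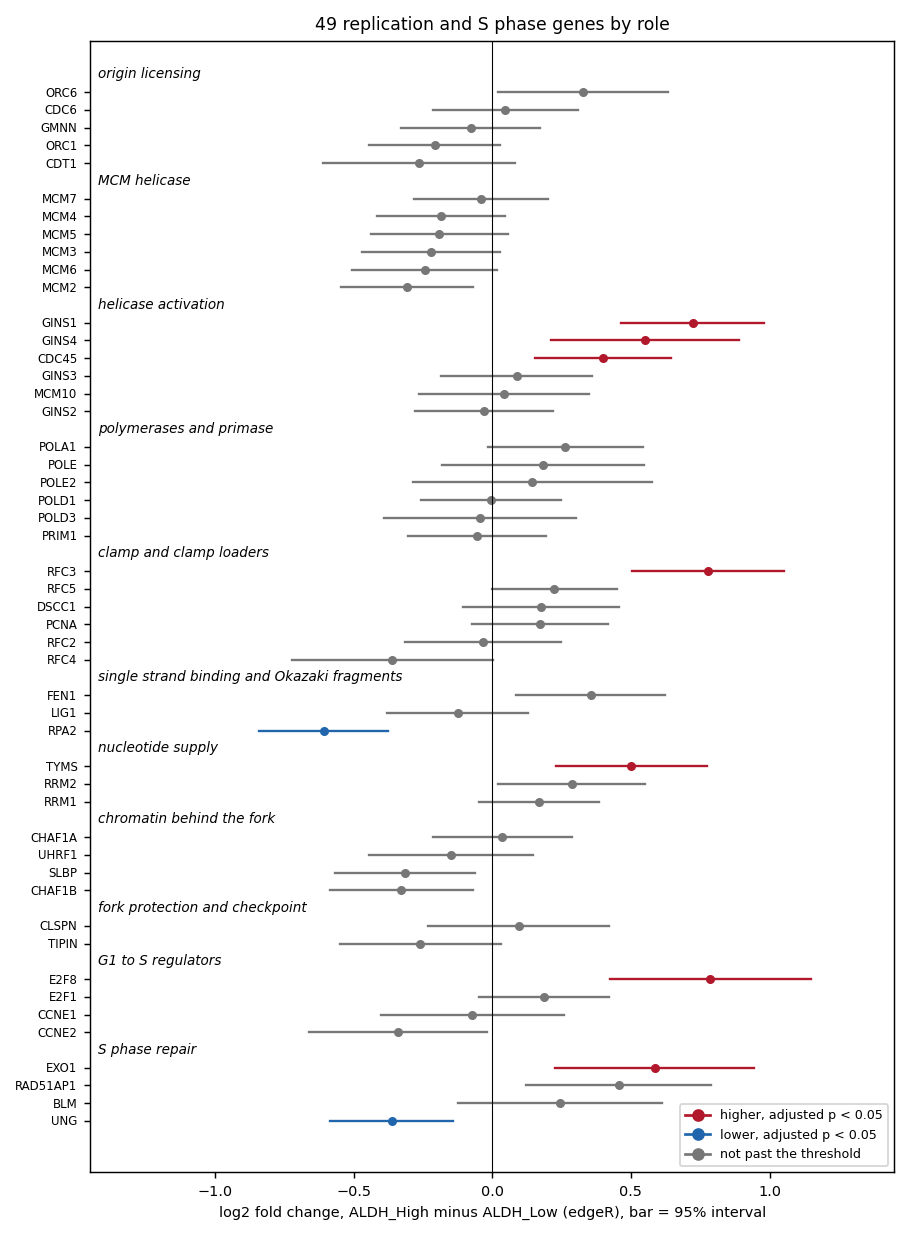
Log2 fold change of each of the 49 genes (x axis, ALDH_High minus ALDH_Low, edgeR) with its 95% interval, in blocks by role. The 7 genes in red and the 2 in blue passed the adjusted p threshold of 0.05, and the 6 MCM genes lie between -0.31 and -0.040 without passing it.

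Licensing genes did not differ beyond the threshold: of 5 measured, 0 were higher and 0 lower, with edgeR adjusted p from 0.131 to 0.829. ORC1 and ORC6 are subunits of the origin recognition complex. ORC1 had 85.6, 83.1 and 87.9 CPM in ALDH_High libraries 1 to 3 and 90.2, 103 and 103 CPM in ALDH_Low libraries 1 to 3, and ORC6 had 49.7, 55.4 and 61.0 against 44.04, 37.97 and 50.6 CPM. The ORC1 values did not overlap, with all ALDH_Low libraries above, and the ORC6 values overlapped at ALDH_High library 1. Their log2 fold changes were -0.21 and 0.33. CDC6, which brings the MCM ring to origins, had 124, 153 and 150 CPM against 128, 142 and 143 CPM (log2 fold change 0.047, 95% interval -0.21 to 0.31). CDT1, its partner in loading, had 117, 88.0 and 85.0 CPM against 99.7, 133 and 115 CPM (-0.26, interval -0.61 to 0.083). ALDH_High library 1 stood with the ALDH_Low libraries for CDT1, and the edgeR adjusted p of CDT1 went from 0.284 to 0.0507 without it. When any other library was left out, the edgeR adjusted p of CDT1 lay between 0.214 and 0.631. GMNN, the inhibitor of CDT1, had 47.7, 50.4 and 49.5 CPM against 51.2, 47.8 and 56.9 CPM (-0.078, interval -0.33 to 0.17). The ratio of CDT1 to GMNN TPM within a library was 0.934 ± 0.199 in ALDH_High and 1.07 ± 0.220 in ALDH_Low (SD, n = 3), and the groups overlapped.

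The MCM2 to MCM7 genes encode the 6 subunits of the replicative helicase ring. Of these 6, 0 were called higher and 0 lower, and all 6 had a log2 fold change below 0, a sign that MCM2 to MCM6 held in all 15 alternatives and MCM7 lost in 5 of them (0.013 in limma on log2(TPM + 1)). MCM2 came closest to the threshold, at 364, 329 and 312 CPM in ALDH_High and 397, 439 and 408 CPM in ALDH_Low. Its log2 fold change was -0.31 (SE 0.11) with an edgeR adjusted p of 0.0702. Its groups did not overlap, and it passed without ALDH_High library 1 (edgeR adjusted p 0.0224) and with upper-quartile scaling. MCM2 did not pass in the other 13 alternatives. MCM6 also did not overlap in CPM, with 118, 146 and 134 against 147, 154 and 170 CPM (-0.24, edgeR adjusted p 0.185). In TPM the MCM6 groups overlapped, with ALDH_High library 2 at 60.0 and ALDH_Low library 1 at 58.0. MCM3 had 200, 225 and 216 against 222, 265 and 259 CPM (-0.22). MCM4 had 416, 461 and 422 against 460, 511 and 508 CPM (-0.19). MCM5 had 213, 192 and 183 against 230, 236 and 204 CPM (-0.19). In these 3 genes the highest ALDH_High library lay above the lowest ALDH_Low library. MCM7, at 668, 638 and 611 against 591, 676 and 704 CPM, had fully overlapping groups (-0.040, 95% interval -0.28 to 0.20). Per length, MCM7 was the most abundant of the 6, at 320 ± 9.02 TPM in ALDH_High and 318 ± 22.8 TPM in ALDH_Low, and MCM6 the least, at 53.4 ± 8.54 and 60.7 ± 2.61 TPM (SD, n = 3).

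**Figure D2:**
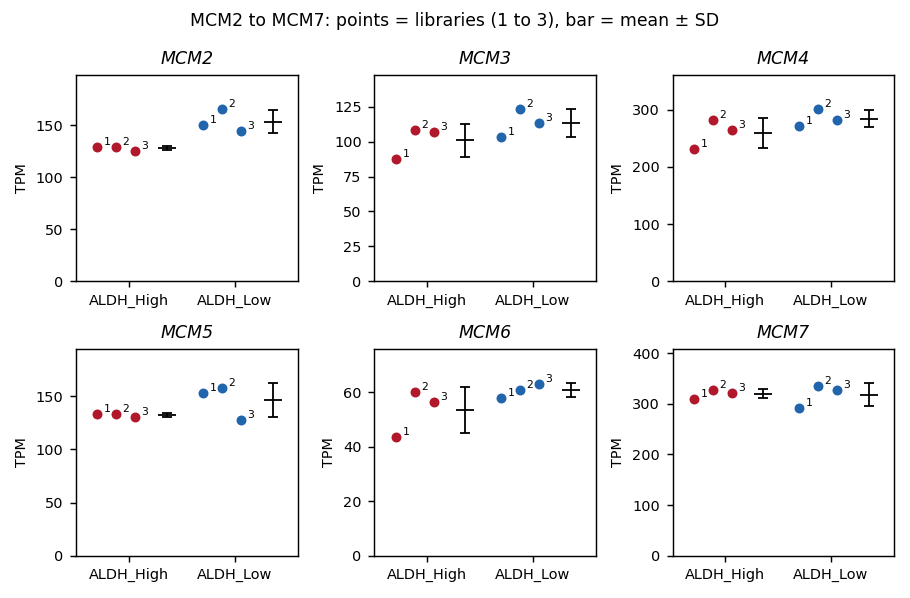
TPM (y axis, from 0) of MCM2 to MCM7 in each library, with points numbered by library and bars for the mean ± SD (n = 3). The MCM2 points of ALDH_High, from 125 to 129 TPM, lie below those of ALDH_Low, from 145 to 165 TPM, and the groups overlap for MCM3, MCM4, MCM5, MCM6 and MCM7.

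Among the 6 genes that turn the loaded ring into a moving helicase, 3 were higher and 0 lower in ALDH_High. Of all genes tested, 10.8% were higher and 9.83% lower. GINS1 (ENSG00000101003, chromosome 20, 25391008 to 25452700, GRCh38), a subunit of the GINS complex of the helicase, had 62.6, 54.9 and 56.7 CPM in ALDH_High against 38.02, 34.3 and 33.1 CPM in the ALDH_Low libraries. Every ALDH_High library was above every ALDH_Low library, and the log2 fold change was 0.72 (SE 0.12, edgeR adjusted p 0.00162). GINS4 (ENSG00000147536, chromosome 8, 41529218 to 41545030), another subunit of the complex, had 44.3, 50.6 and 40.4 against 25.1, 35.3 and 32.1 CPM. These groups did not overlap either (0.55, SE 0.15, edgeR adjusted p 0.0289), and the call was lost in 4 of 15 alternatives. CDC45 (ENSG00000093009, chromosome 22, 19479457 to 19520612), which joins the ring together with GINS, had 58.9, 63.1 and 62.2 against 44.4, 44.6 and 50.6 CPM. Its lowest ALDH_High library lay above its highest ALDH_Low library (0.40, SE 0.11, edgeR adjusted p 0.0276), and CDC45 missed the threshold when ALDH_High library 2 or 3 or ALDH_Low library 1 or 2 was dropped, with adjusted p up to 0.111.

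GINS2 and GINS3, the other subunits of the complex, did not pass the threshold. GINS2 had 75.7, 69.8 and 66.6 against 67.7, 70.3 and 78.6 CPM (-0.030, 95% interval -0.28 to 0.22), and GINS3 had 28.3, 27.1 and 29.5 against 26.1, 24.6 and 29.2 CPM (0.088, interval -0.18 to 0.36). The ratio of GINS1 to GINS2 TPM within a library, chosen after the values were seen, was 0.813, 0.774 and 0.837 in ALDH_High and 0.552, 0.479 and 0.414 in ALDH_Low. The ratios did not overlap (two-sided exact permutation p = 0.1, which is the lowest value possible with 3 libraries a group). MCM10, which binds the ring as it starts to move, had 55.9, 79.1 and 66.6 against 61.1, 68.0 and 67.1 CPM, with overlapping groups (0.041).

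The catalytic core of the fork showed no call. Of 6 polymerase and primase genes, 0 were higher and 0 lower, log2 fold changes ran from -0.056 to 0.26, and the groups overlapped in all 6. POLA1, the catalytic subunit of polymerase alpha, had 65.4, 85.5 and 80.2 against 67.7, 61.0 and 64.0 CPM. ALDH_High library 1 was the exception among its group, and POLA1 passed without it (log2 fold change 0.38, edgeR adjusted p 0.0220, from 0.26 and 0.180 with it). In the other 14 alternatives POLA1 did not pass, and without ALDH_High library 2 it was 0.20 (edgeR adjusted p 0.438). POLE, the catalytic subunit of the leading-strand polymerase epsilon, had 117, 157 and 170 against 118, 118 and 155 CPM (0.18, 95% interval -0.18 to 0.55). For POLD1, the catalytic subunit of polymerase delta, the values were 176, 147 and 161 against 150, 161 and 174 CPM (-0.0046, interval -0.26 to 0.25). PRIM1, POLD3 and POLE2 lay between -0.056 and 0.15. PRIM1, the small primase subunit, shares 139 exonic bases on the same strand with NACA, which had 1598% of its counts, so its level is uncertain.

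Of the 6 clamp and clamp loader genes, 1 was higher and 0 lower, beside 10.8% and 9.83% of all genes tested. RFC3 (ENSG00000133119, chromosome 13, 33818069 to 33966558), a small subunit of replication factor C, had 68.6, 81.5 and 89.1 CPM in ALDH_High and 47.0, 47.8 and 44.9 CPM in ALDH_Low. The groups were far apart (log2 fold change 0.78, SE 0.12, edgeR adjusted p 0.00154). RFC4, a partner subunit, had 25.8, 37.3 and 35.1 against 40.5, 37.2 and 48.6 CPM, with ALDH_High library 2 just above ALDH_Low library 2 (-0.36, 95% interval -0.72 to 0.0018). EIF4A2, with 508% of the counts of RFC4, overlaps 18 of its exonic bases on the opposite strand. RFC2 (-0.033) and RFC5 (0.22) did not pass the threshold. RFC5 had 63.6, 64.2 and 63.8 against 52.9, 54.6 and 56.6 CPM, without overlap (edgeR adjusted p 0.159). On the opposite strand, WSB2 shares 186 exonic bases with RFC5. WSB2 had 160% of the counts of RFC5 and did not pass the threshold (0.33, edgeR adjusted p 0.0669). The ratio of RFC3 to RFC4 TPM, also chosen after the values were seen, was 1.64, 1.35 and 1.57 in ALDH_High and 0.718, 0.796 and 0.571 in ALDH_Low, without overlap (two-sided exact permutation p = 0.1, again the lowest possible). PCNA, the clamp itself, had 277, 258 and 242 against 241, 208 and 240 CPM (0.17, 95% interval -0.072 to 0.42). Its groups just did not overlap and it did not pass (edgeR adjusted p 0.321). DSCC1, of an alternative clamp loader, lay at 0.18 with overlapping groups.

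RPA2 (ENSG00000117748, chromosome 1, 27891524 to 27914746), the middle subunit of replication protein A, was lower in ALDH_High. It had 81.4, 77.4 and 78.8 CPM there and 113, 121 and 129 CPM in ALDH_Low. The gap between the groups exceeded the spread within either (log2 fold change -0.61, SE 0.10, edgeR adjusted p 0.00245). FEN1, the flap nuclease that trims Okazaki fragments, had 312, 284 and 288 against 220, 206 and 266 CPM, without overlap. FEN1 missed the threshold in the main fit (0.35, edgeR adjusted p 0.0659) and passed in 5 of 15 alternatives. FEN1 shares 49 exonic bases with FADS2 on the same strand, a gene with 17.1% of its counts that was lower in ALDH_High (-0.52, edgeR adjusted p 0.0161). LIG1, the ligase that seals the fragments, had 81.0, 96.0 and 91.0 against 93.5, 106 and 93.1 CPM (-0.12, 95% interval -0.38 to 0.13).

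TYMS, RRM2 and RRM1 supply deoxynucleotides. All 3 had groups that did not overlap, with ALDH_High above, beside 37.8% of all genes tested without overlap in either direction. TYMS (ENSG00000176890, chromosome 18, 657653 to 673578), thymidylate synthase, was the most abundant member per length and had 607, 466 and 548 CPM in ALDH_High and 386, 355 and 404 CPM in ALDH_Low. It was the only one of the 3 past the threshold (log2 fold change 0.50, SE 0.12, edgeR adjusted p 0.0160), and it missed it without ALDH_Low library 2 (edgeR adjusted p 0.0747). On the opposite strand, ENOSF1 overlaps 39.9% of the exonic bases of TYMS. ENOSF1 had 5.76% of the counts of TYMS and did not pass the threshold (-0.16, edgeR adjusted p 0.611). The library kit keeps strand, but whether the counting used it is not given in the sources used here. RRM2, the regulated small subunit of ribonucleotide reductase, had 570, 565 and 548 against 462, 521 and 398 CPM (0.29, edgeR adjusted p 0.124). RRM1, the large subunit, had 209, 218 and 207 against 191, 183 and 190 CPM (0.17, edgeR adjusted p 0.267). The ratio of RRM2 to RRM1 TPM was 3.501 ± 0.0846 and 3.23 ± 0.490 (SD, n = 3), with overlapping groups.

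**Figure D3:**
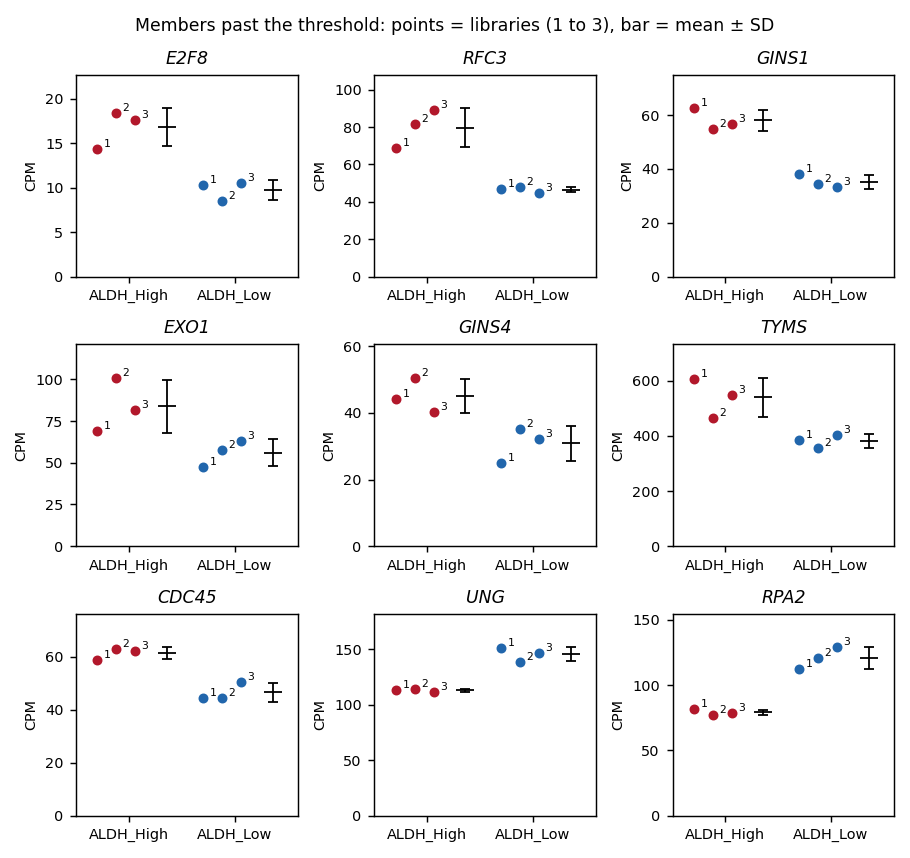
CPM (y axis, from 0) of the 9 members past the threshold in each library, with points numbered by library and bars for the mean ± SD (n = 3). In all 9 panels the ALDH_High and ALDH_Low points do not overlap, with ALDH_High above in 7 and below in RPA2 and UNG.

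Genes for chromatin assembly behind the fork had 0 calls among 4. SLBP, which binds histone messages, had 93.0, 109 and 110 against 120, 133 and 135 CPM (log2 fold change -0.31, edgeR adjusted p 0.0788). CHAF1B, a subunit of chromatin assembly factor 1, had 28.3, 32.1 and 31.0 against 35.7, 38.4 and 40.5 CPM (-0.33, edgeR adjusted p 0.0757). The groups did not overlap in either, and both passed in 1 alternative, upper-quartile scaling, which lowered the median of all genes to -0.062. CHAF1B shares 89 exonic bases on the same strand with MORC3, which had 42.7% of its counts (0.26, edgeR adjusted p 0.289). CHAF1A, the partner of CHAF1B, lay at 0.037 (95% interval -0.21 to 0.29). UHRF1, which couples replication to DNA methylation, had 203, 259 and 246 against 242, 299 and 244 CPM (-0.15). Of the fork protection genes, CLSPN had 46.9, 66.6 and 67.3 against 56.4, 54.7 and 58.3 CPM, with ALDH_High library 1 below and libraries 2 and 3 above all ALDH_Low libraries (0.095). TIPIN had 31.6, 37.7 and 36.6 against 38.4, 40.9 and 47.8 CPM (-0.26, edgeR adjusted p 0.203).

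E2F8 (ENSG00000129173, chromosome 11, 19224063 to 19241620), an E2F family repressor that is itself made in S phase, had 14.4, 18.4 and 17.6 CPM in ALDH_High and 10.3, 8.46 and 10.5 CPM in ALDH_Low, without overlap. The log2 fold change was 0.79 (SE 0.16), at an edgeR adjusted p of 0.00701. It was also the least abundant member, at 7.48 ± 1.38 and 4.16 ± 0.418 TPM (SD, n = 3), and missed the threshold when all TPM rows entered limma unfiltered (limma adjusted p 0.0696). E2F1, an activator of replication genes, had 85.3, 86.0 and 84.5 against 72.8, 70.8 and 81.1 CPM (0.19, 95% interval -0.047 to 0.42). CCNE1 and CCNE2 encode the E cyclins that drive entry into S phase with CDK2. CCNE1 had 16.9, 17.6 and 13.7 against 18.2, 16.7 and 15.7 CPM (-0.072, interval -0.40 to 0.26). CCNE2 had 18.2, 21.6 and 23.9 against 28.8, 24.1 and 27.7 CPM, without overlap (-0.34, edgeR adjusted p 0.132). INTS8 overlaps 37.0% of the exonic bases of CCNE2 on the opposite strand and had 148% of its counts, so the CCNE2 level is uncertain unless strand was used in counting.

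The repair genes went both ways. EXO1 (ENSG00000174371, chromosome 1, 241847967 to 241895148), an exonuclease of mismatch repair and end resection, had 69.2, 101 and 81.5 CPM in ALDH_High and 47.2, 57.5 and 63.1 CPM in ALDH_Low. The groups did not overlap (log2 fold change 0.59, SE 0.16, edgeR adjusted p 0.0276), and the call was lost in 6 of 15 alternatives, with adjusted p up to 0.143. RAD51AP1, an accessory factor of homologous recombination, had 29.97, 41.2 and 40.5 against 25.2, 26.4 and 29.98 CPM, with ALDH_High library 1 level with ALDH_Low library 3 (0.46, edgeR adjusted p 0.0569). RAD51AP1 passed in 4 of 15 alternatives, among them the fit without ALDH_High library 1 (0.61, edgeR adjusted p 0.00587). BLM, a helicase that unwinds recombination intermediates, had 26.1, 36.2 and 31.5 against 23.4, 24.3 and 31.7 CPM (0.24). UNG (ENSG00000076248, chromosome 12, 109097597 to 109126725), the glycosylase that removes uracil from DNA, was lower, at 114, 114 and 112 against 151, 139 and 147 CPM. Its groups did not overlap (-0.36, SE 0.099, edgeR adjusted p 0.0267), but the call was lost in 10 of 15 alternatives, with adjusted p up to 0.108.

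**Figure D4:**
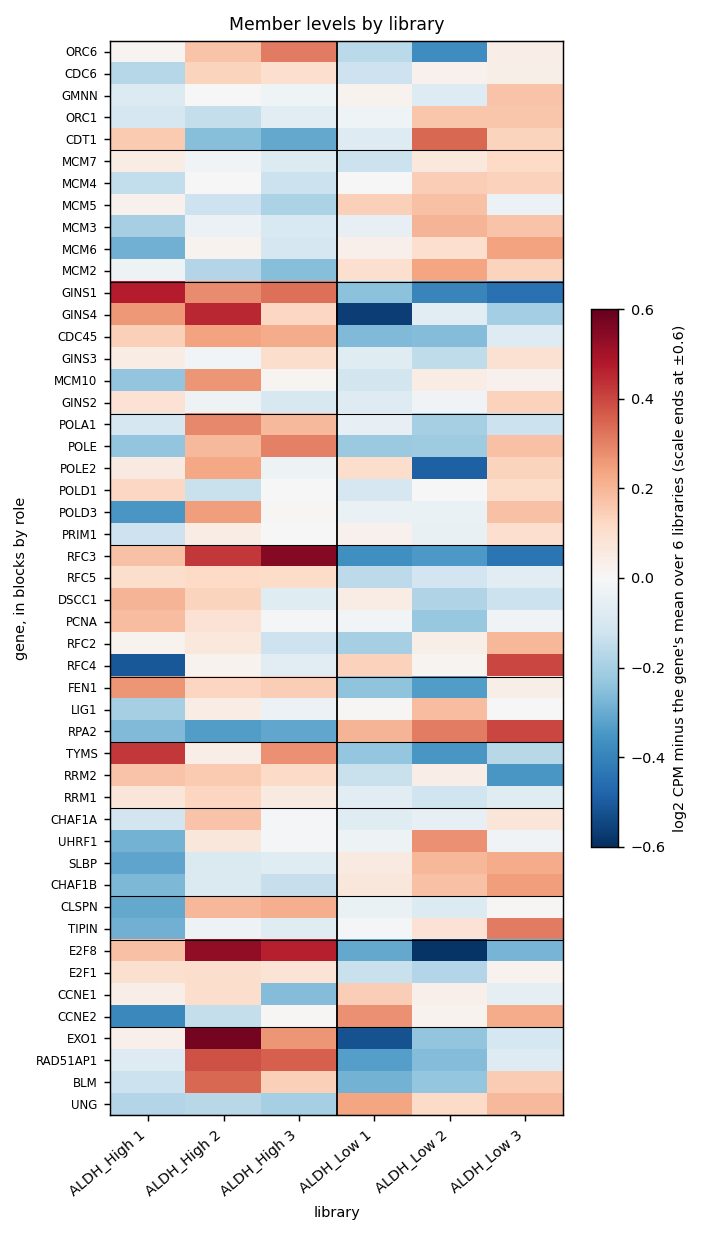
Log2 CPM of each member in each library minus the mean of that gene over the 6 libraries (colour, red above and blue below), with rows in blocks by role and a line between the groups. ALDH_High library 1 is the lowest of its group in 27 of the 49 rows, among them POLD3, RFC4, CLSPN and CCNE2.

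Abundance per length spanned a wide range. Averaged over the 6 libraries, TYMS (481 TPM), RRM2 (329), MCM7 (319), PCNA (301) and MCM4 (272) were the highest, and E2F8 (5.82), CCNE1 (13.3), CHAF1B (13.5) and POLE2 (15.4) the lowest. The 49 genes summed to 4012, 4430 and 4474 TPM in ALDH_High libraries 1, 2 and 3 and to 3909, 4064 and 3956 TPM in ALDH_Low libraries 1, 2 and 3, so that ALDH_High library 1 lay within the range of the ALDH_Low libraries. Annotated pseudogenes named after a member with the suffix P (GENCODE 44) carried at most 0.0121% of the counts of that member, the highest being those of UNG. Not every member had one, and pseudogenes with other names were not searched.

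Other replication genes, 54 outside the 49, were also called in a minority: 5 were higher, 2 lower and 47 not called, with a median log2 fold change of 0.0067. The 7 called are 12.96% of this list, beside 20.6% of all genes tested. The 3 higher ones with the smallest p were TICRR, an adaptor needed to fire origins (69.6, 89.1 and 84.5 against 35.3, 37.9 and 36.3 CPM, 1.15, edgeR adjusted p 0.000150), MCM8, an MCM relative of recombination repair on chromosome 20 (75.8, 95.8 and 92.5 against 52.4, 50.6 and 51.5 CPM, 0.77, edgeR adjusted p 0.00133), and RECQL4, a helicase of origin firing (99.6, 91.3 and 83.8 against 58.7, 61.1 and 66.0 CPM, 0.56, edgeR adjusted p 0.00572). The lower ones were MSH6, of mismatch repair (148, 179 and 169 against 245, 278 and 239 CPM, -0.62, edgeR adjusted p 0.00421), and E2F2 (14.8, 17.4 and 17.3 against 24.1, 24.7 and 21.7 CPM, -0.51, edgeR adjusted p 0.0216). Without ALDH_High library 1, 14 of the 54 were called, where 23.7% of all genes tested were.

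G2 and mitosis genes are likewise expressed in dividing cells. Of 30 such genes, 18 (60.0%) were higher and 0 lower, beside 10.8% and 9.83% of all genes tested, with a median log2 fold change of 0.55, against 7 and 2 of 49 with a median of 0.037 for the replication set. UBE2C (1.76), CDK1 (1.66) and GTSE1 (1.05) had the smallest p, with edgeR adjusted p of 5.60e-05, 5.60e-05 and 9.46e-05. The log2 fold change of E2F8, 0.79, lay below those of 9 mitosis genes. CCNB1 (0.099) and CDC20 (-0.19) were among the 12 mitosis genes not called. The difference between the lists is given as counts and medians, without a test.

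**Figure D5:**
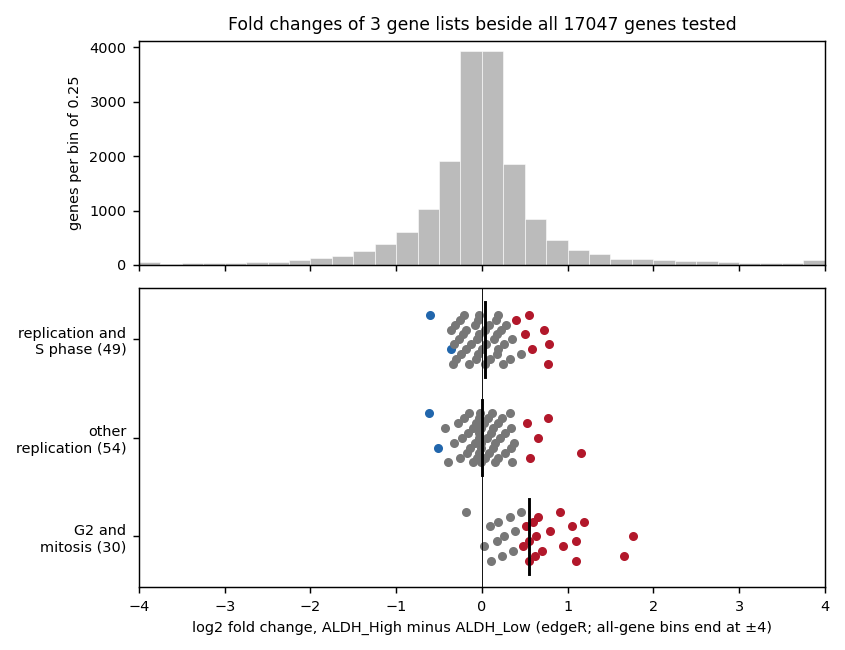
Log2 fold changes (x axis, ALDH_High minus ALDH_Low) of all 17047 genes tested as a histogram, above those of the 49 members, 54 other replication genes and 30 G2 and mitosis genes, with called genes in red (higher) or blue (lower) and a black bar at each median. The medians are 0.037, 0.0067 and 0.55.

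RFC3 and GINS1 lie on chromosomes 13 and 20, where most genes were above 0. Counting protein-coding genes that averaged 5 CPM or more, chromosome 13 had a median log2 fold change of 0.37 (177 genes) and chromosome 20 one of 0.28 (290 genes). It was -0.22 on chromosome 18 (155 genes), where the 42 genes of the first 20 Mb, the part that holds TYMS, had a median of 0.18, and it lay between -0.035 and 0.11 on the other 20 chromosomes. RFC3 was 0.41 above the median of chromosome 13 and GINS1 0.45 above that of chromosome 20. PCNA and E2F1, also on chromosome 20, were below its median, at 0.17 and 0.19. For E2F8, EXO1, GINS4, CDC45, RPA2 and UNG, the medians of their chromosomes lay between -0.017 and 0.080. The part of chromosome-wide differences in the values of RFC3, GINS1 and TYMS was not tested.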

How the data were processed

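RNA sequencing of 3 ALDH_High and 3 ALDH_Low libraries was analysed from 2 deposited tables. The submitters' processing notes list FastQC 0.11.3, STAR 2.5.1b, HTSeq 0.6.1, DESeq2 and GRCh38, without roles. The annotation and strand setting are not given in the sources used here. The authors deposited expected counts rounded to whole numbers, as read from the values, since some genes have a count of 0 beside a TPM above 0. They also deposited TPM, with gene lengths not stated. The deposited model coefficients were not used here, and 261 rows without a gene name stayed in.

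After filterByExpr and TMM scaling, the quasi-likelihood F test of edgeR 4.0.16 (two-sided, R 4.3.3) was run over all 17047 genes, with Benjamini-Hochberg adjustment and a threshold of 0.05. CPM use TMM-scaled library sizes, except for the summed cell type markers, which use total counts. Each standard error was derived from the fold change and the root of F, and 95% intervals use the fit's total degrees of freedom. Single values were compared with an exact permutation test. Alternatives were other scalings and filters, a replicate block, DESeq2 1.42.0, limma 3.58.1 on TPM, and leaving out each library. Positions and overlaps come from GENCODE 44, matched by Ensembl identifier for all 49 members. Named genes were the members, by role, and the called genes with the smallest p (at most 3 in each direction) of 2 further lists. Members, lists and tests were chosen with earlier results of these data known. Total counts ran from 26692868 to 37830603 per library. The median half-width of the members' 95% intervals was 0.26 on the log2 scale.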

Additional observations from a re-analysis of the deposited data

How the results depend on the processing

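RFC3, GINS1 and RPA2 kept their direction and passed in all 15 alternatives. TYMS and E2F8 each missed the threshold in 1, CDC45 and GINS4 in 4, EXO1 in 6 and UNG in 10. The cause of the changes below was not tested.

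The 7 higher members became 4 when limma was run on unfiltered log2(TPM + 1) values, and 4 to 10 when 1 library was left out (10 without ALDH_High library 1). That limma fit had 1155 of 34849 genes tested higher, and the main fit 1838 of 17047. The higher members became 9 without a low-count filter and 9 in the DESeq2 Wald test, with FEN1 and RAD51AP1 added in both. In these 2 fits 2378 and 2133 of 34665 genes were higher. The 2 filtered limma fits gave 7 higher members each, with FEN1 in place of EXO1. The 2 lower members became 5 with upper-quartile factors and 1 without a low-count filter, with the replicate block, and in all 3 limma fits, and were 1 to 3 when 1 library was left out. Of all genes tested, 1931 of 17047 were lower with upper-quartile factors and 2088 of 34665 without a low-count filter. In limma on log2(TPM + 1), on log2(TPM + 0.1) and on unfiltered values, 1047 of 15146, 1051 of 15146 and 851 of 34849 genes were lower. With those unfiltered limma values, 4 of 54 other replication genes (7 in the main fit), 11 of 30 G2 and mitosis genes (18) and 2006 of all genes (3513) were called. Leaving out 1 library gave 5 to 14 other replication genes, 14 to 21 G2 and mitosis genes, 2488 to 4221 of all genes, and a median of the members from -0.0077 (without ALDH_Low library 2) to 0.12 (without ALDH_High library 1).

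The replicate block gave 8 higher members and 1 lower, adding RAD51AP1 and losing UNG. Of all 17047 genes tested, it called 1947 higher and 1801 lower. Deviations from the group means correlated at 0.22, 0.25 and 0.033 between libraries of equal number. Between libraries of unequal number they correlated at -0.29 to 0.037. The labels do not say that equal numbers mark pairs, and the main fit did not treat them as such.

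Signs changed only in members close to 0 that did not pass in any fit. With upper-quartile factors, CDC6 (-0.0014), MCM10 (-0.0074) and CHAF1A (-0.012) changed sign. With limma, MCM7 (0.013 in all 3 fits), GINS2 (0.020), RFC2 (0.023) and POLD1 (0.043 and 0.044) did. POLD1 was 0.0042 with DESeq2 size factors, 0.0074 without a low-count filter and 0.016 in the DESeq2 Wald test. When 1 library was left out, log2 fold changes ran from -0.097 to 0.011 for MCM7, -0.077 to 0.17 for MCM10, -0.064 to 0.034 for GINS2, -0.092 to 0.0088 for PRIM1, -0.053 to 0.074 for POLD1, -0.18 to 0.12 for POLD3, -0.031 to 0.25 for POLE2, -0.12 to 0.064 for RFC2, -0.028 to 0.12 for CHAF1A and -0.13 to 0.046 for CCNE1.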
